A study of Mus musculus with 21 samples.

Results

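The platelet-derived growth factor (PDGF) family was followed here through 6 genes, the ligands *Pdgfa*, *Pdgfb*, *Pdgfc* and *Pdgfd* and the receptors *Pdgfra* and *Pdgfrb*. They were chosen by name among the 32285 genes counted. PDGF ligands are secreted dimers that bind a pair of receptor tyrosine kinases on neighboring cells. In blood vessels, PDGF-B released by endothelium holds pericytes, which carry PDGFRβ, against the vessel wall. In connective tissue, PDGFRα and PDGFRβ are widely used to recognize fibroblasts, and in the lung PDGF-A acts on PDGFRα-positive fibroblasts during the formation of alveoli. PDGF-C and PDGF-D are released in a latent form and need proteolytic cleavage, by plasminogen activators among others, before they can bind.

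Single-cell RNA sequencing had been carried out on primary melanomas, on melanoma lung metastases and on unchallenged lungs of mice. Hosts were mT/mG mice, in which a ubiquitous membrane tdTomato marks every host cell and no Cre was present in any group, and tumors came from transplanted fragments of the MT-ret melanoma model, which are not labeled. Primary tumors grew in the subcutis, were resected, and lung metastases arose afterwards, so primary tumors and lungs differed in organ as well as in the presence of a tumor. No unchallenged skin was analysed here, and all samples carried lung as their tissue label, the primary tumors included. Libraries called TME (tumor microenvironment) were labeled as host cells and libraries called MM as melanoma cells, with adult mice of both sexes as hosts. The cells did not always match: 2018 of 5166 cells in metastasis TME replicate 5 were melanoma-like, and only 269 of 638 in metastasis MM replicate 4 were. TME cells were sorted as live tdTomato+ cells, with or without removal of CD45+ leukocytes, and the sources used here do not say which gate applied to a given library. There were 4 libraries of unchallenged lung, 4 of metastasis TME, 4 of primary tumor TME, 2 of metastasis MM and 2 of primary tumor MM. Replicate 1-3 of the metastasis TME pooled 2 mice and replicate 1-3 of the primary tumor TME pooled 3 mice, while each other library came from 1 mouse.

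Deposited barcodes numbered 110283 under 24 library names, 5 names repeated the cells of another name, and 100359 cells in 16 libraries were kept. Totals ran from 1777036 to 60339415 unique molecular identifiers (UMIs, counted molecules) per library. The median UMIs per cell were lowest in primary tumor TME replicate 6 (1203), unchallenged lung replicate 6 (1605) and primary tumor MM replicate 4 (1654). Barcode sequences found in more than 1 library numbered 1093 and covered 2192 cells. Cells were clustered without the 6 genes and named from marker lists that do not hold them, as "-like" types throughout. UMIs of all 12 fibroblast markers were present in the fibroblast-like cells (1173 cells) of each tissue, and of all 12 pericyte markers in the pericyte-like cells (143 cells). The same held for the lists of the endothelial-like cells (6869) and the melanoma-like cells (49991). Pericyte-like cells also had 7 of the 8 smooth muscle markers raised, which summed to 6694 to 9310 CPM, beside 5392 to 11841 CPM for the pericyte list and 17140 to 24208 CPM for the fibroblast list. A further 3602 cells of the fibroblast clusters were led by genes of another cell type and were kept apart, as were 313 cells with mesothelial markers. Of the 3602, 2051 came from unchallenged lung replicate 6 and 1456 from primary tumor TME replicate 6. Levels are given as CPM, the UMIs of a gene in 1000000 UMIs of the cells of a type in a library, for libraries with at least 20 such cells. Intervals in brackets are exact 95% Poisson intervals and cover counting error only.

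In the mouse genome (GRCm38, GENCODE annotation), *Pdgfa* lies on chr5:138976014-138997370 (minus strand), *Pdgfb* on chr15:79995874-80014977 (minus), *Pdgfc* on chr3:81036416-81214040 (plus), *Pdgfd* on chr9:6168584-6378850 (plus) and *Pdgfra* on chr5:75152292-75198215 (plus). The 250 bases upstream of the RefSeq start are shown for *Pdgfra*, the member with the largest difference between tissues in fibroblasts, and for *Pdgfd*, a ligand whose level differed between endothelial clusters (GRCm38.p6, both on the plus strand, chr5:75152001-75152250 and chr9:6168236-6168485). Capitals mark matches to TATAA on either strand.
Pdgfra: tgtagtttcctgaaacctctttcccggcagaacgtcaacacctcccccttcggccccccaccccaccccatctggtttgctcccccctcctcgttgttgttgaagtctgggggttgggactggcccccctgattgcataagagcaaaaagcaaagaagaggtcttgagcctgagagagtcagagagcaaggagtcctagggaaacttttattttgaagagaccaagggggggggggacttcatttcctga
Pdgfd: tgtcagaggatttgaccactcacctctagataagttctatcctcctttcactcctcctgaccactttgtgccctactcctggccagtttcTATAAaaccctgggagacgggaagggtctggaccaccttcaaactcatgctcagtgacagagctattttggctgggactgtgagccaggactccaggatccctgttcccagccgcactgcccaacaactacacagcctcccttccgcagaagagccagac
The *Pdgfd* stretch held 1 match to TATAA and the *Pdgfra* stretch none, against 22.7% of 32536 mouse upstream stretches of this length with at least 1. Neither stretch held GGGCGG (33% of all) or CCAAT (33.8% of all) on either strand, and the motifs did not overlap each other. GC content was 54.4% upstream of *Pdgfra*, with 4 CpG dinucleotides, and 53.6% upstream of *Pdgfd*, with 3, beside medians of 52.4% and 6 over all stretches.

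Each gene had its own set of cell types. *Pdgfa* was read from the most cells, with 22516 UMIs in 15649 cells, and *Pdgfc* from the fewest, with 937 UMIs in 856 cells. The following levels are a description, since the cell types were defined on the same cells, and only levels of 1 gene are compared, never those of different genes.

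*Pdgfa*, whose dimer binds PDGFRα, was highest in pericyte-like cells, at 399 ± 103 CPM (SD, n = 3 libraries). Ciliated-like cells followed at 230 ± 82.8 CPM (n = 5). An unnamed cluster seen in tumor libraries had 229 ± 67.2 CPM (n = 9, lowest 154, highest 376). It was led by *Serpina3n*, *Col2a1* and *Cspg4*, with *Bche* among its top genes, and is called the *Cspg4* *Bche* cells here. These 9 libraries came from 4 mice, and the 5 libraries of melanoma-like cells from 3 mice, so that the SD is over libraries that share mice. The ranges of the pericyte-like, ciliated-like and *Cspg4* *Bche* cells overlapped. Melanoma-like cells came next with 80.3 ± 19.0 CPM (n = 5), below every library of the *Cspg4* *Bche* cells, and these 49922 cells held 13462 of the 22516 UMIs. AT-2-like cells had 61.9 ± 2.37 CPM (n = 3), fibroblast-like cells 47.1 ± 35.4 CPM (n = 7) and endothelial-like cells 30.6 ± 16.1 CPM (n = 13), ranges that overlapped with their neighbors.

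*Pdgfb*, the ligand by which endothelium recruits pericytes, was an endothelial transcript first of all. Endothelial-like cells had 229 ± 73.7 CPM (n = 13, 151 to 401), and every endothelial library lay above every library of the next type. NK-like cells had 68.4 ± 7.71 CPM (n = 5), macrophage-like cells 51.4 ± 18.6 CPM (n = 11) and monocyte-like cells 31.5 ± 18.2 CPM (n = 10). All leukocyte-like cells together had 35.6 ± 13.6 CPM (n = 11). In melanoma-like cells *Pdgfb* came to 48 UMIs in 49922 cells, 0.335 ± 0.361 CPM (n = 5). In pericyte-like cells it came to 2 UMIs in the libraries with at least 20 such cells, and to 6 UMIs in all 143 cells.

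*Pdgfd*, a ligand of PDGFRβ, was highest in endothelial-like cells as well, at 28.3 ± 13.8 CPM (n = 13). Fibroblast-like cells had 11.5 ± 9.91 CPM (n = 7) and their range overlapped with that of endothelium. *Pdgfc*, which binds PDGFRα, was low in each cell type taken as a whole. The mesothelial-marker cells had 14.1 ± 8.84 CPM (n = 3), macrophage-like cells ranged from 0 to 25.1 CPM (n = 11) and fibroblast-like cells had 6.95 ± 9.30 CPM (n = 7). The fibroblast-like libraries ranged from 0 to 25.9 CPM, the highest in primary tumor TME replicate 5. Each type in the order of *Pdgfc* means overlapped with the next, although the mesothelial-marker libraries (8.53 to 24.3 CPM) lay above all melanoma-like, monocyte-like and neutrophil-like libraries, which reached 1.31 CPM at most.

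*Pdgfrb*, on chr18:61045150-61085061 (plus strand, GRCm38), was highest in pericyte-like cells, and no library of another type overlapped with them. Pericyte-like cells had 930 CPM [797 to 1079] in metastasis TME replicate 5, 1016 CPM [916 to 1125] in primary tumor TME replicate 4 and 841 CPM [691 to 1012] in primary tumor TME replicate 6, a mean of 929 ± 88.0 CPM. Fibroblast-like cells followed at 149 ± 68.0 CPM (n = 7, 33.8 to 245). Smooth muscle-like cells of the 1 library with enough cells had 83.4 CPM, and melanoma-like cells 0.166 ± 0.206 CPM (n = 5).

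*Pdgfra* was a transcript of fibroblast-like cells, at 607 ± 561 CPM (n = 7, 169 to 1718), and of the mesothelial-marker cells, at 528 ± 667 CPM (n = 3). The cells of the fibroblast clusters led by other genes also held it, with 823 ± 1185 CPM (n = 3), a mean set by the 27 cells of unchallenged lung replicate 4. Smooth muscle-like cells of metastasis TME replicate 5 had 244 CPM, from 41 UMIs in 29 of 90 cells, above each of the primary tumor fibroblast-like libraries. In pericyte-like cells *Pdgfra* was at 30.0 ± 39.6 CPM (n = 3), in endothelial-like cells at 2.01 ± 2.75 CPM (n = 13) and in melanoma-like cells at 0.485 ± 0.612 CPM (n = 5). Pericyte-like cells were thus high in *Pdgfrb* and *Pdgfa* and low in *Pdgfra*, while fibroblast-like cells held both receptors.

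**Figure D1:**
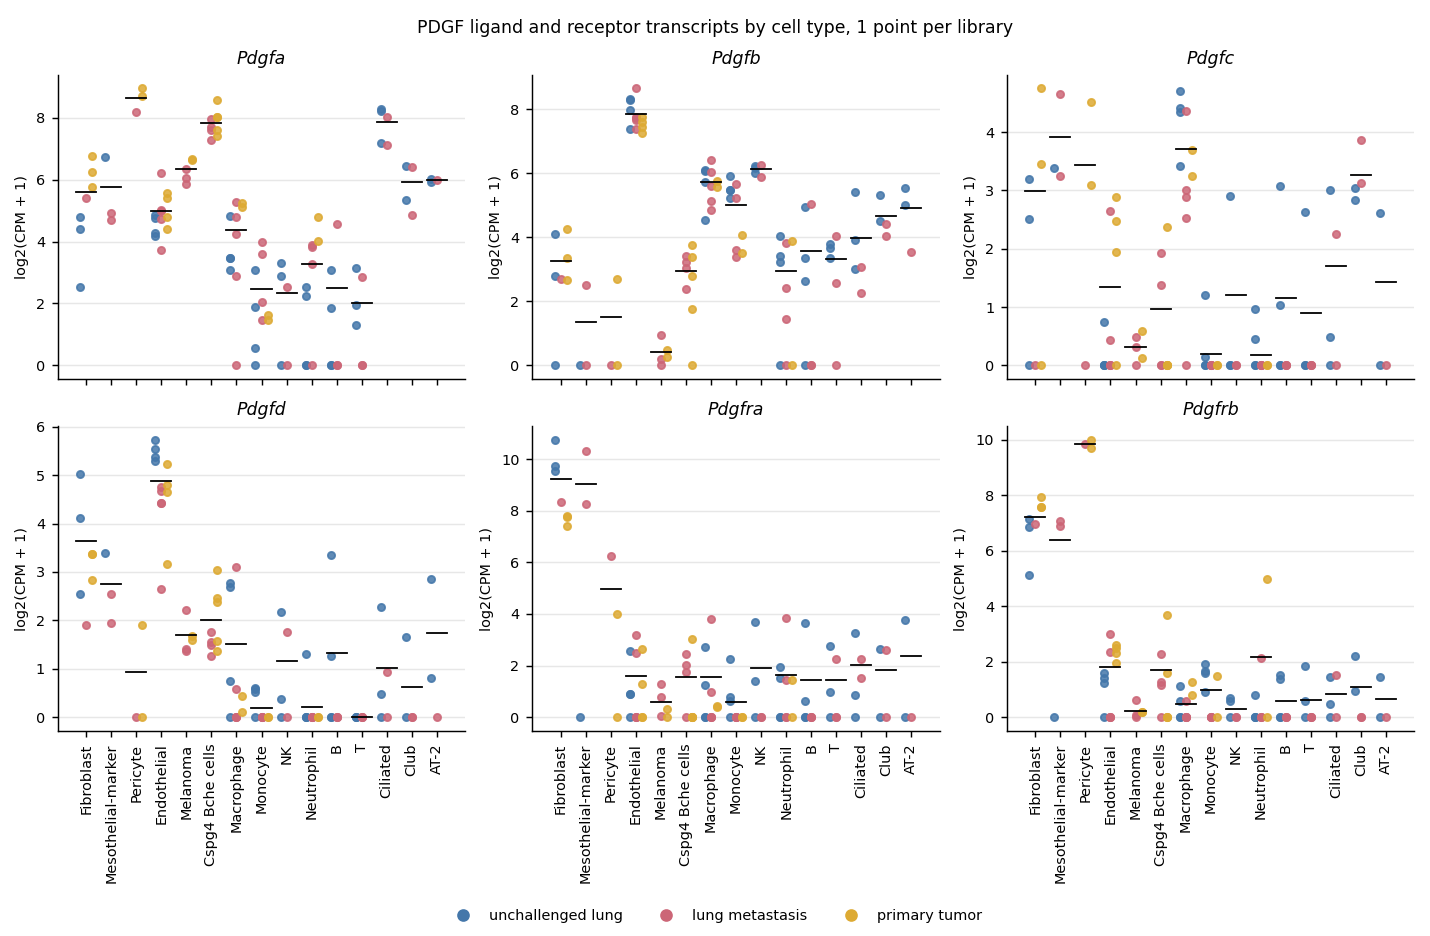
Level of the 6 genes by cell type, as log2(CPM + 1) on the vertical axis, with 1 point for each library with at least 20 cells of the type, colored by tissue, and a bar at the mean CPM. Among the types plotted, *Pdgfrb* stands highest in pericyte-like cells, *Pdgfb* and *Pdgfd* in endothelial-like cells, and *Pdgfra* in fibroblast-like and mesothelial-marker cells. The smooth muscle-like cells and the cells led by other genes, whose mean *Pdgfra* was 823 CPM, are not plotted.

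The share of cells with a UMI was taken after each cell had been thinned to 1000 UMIs with shallower cells left out. A UMI of *Pdgfrb* was found in 53.6% ± 6.19 (SD, n = 3 libraries) of pericyte-like cells and 12.5% ± 6.18 (n = 7) of fibroblast-like cells, against 0.0319% in B-like cells, which should lack it. Without thinning these shares were 91.7%, 40.1% and 0.11%. For *Pdgfra* the thinned share was 41.4% ± 26.4 (n = 7) in fibroblast-like and 0.214% in B-like cells, and the unthinned shares were 70.8% and 0.286%. For *Pdgfb* it was 19.4% ± 5.70 (n = 13) in endothelial-like, 8.75% ± 2.50 (n = 5) in NK-like and 0.92% ± 1.35 (n = 6) in B-like cells, and 41.3%, 20.4% and 2.73% without thinning. For *Pdgfa* it was 24.2% ± 17.2 (n = 3) in pericyte-like, 7.39% ± 1.86 (n = 5) in melanoma-like and 0.578% ± 0.973 (n = 6) in B-like cells, and 58.4%, 27.0% and 0.952% without thinning. Median UMIs ran from 5152 to 6262 in pericyte-like, 3148 to 7479 in fibroblast-like and 1518 to 4431 in B-like cells of these libraries. Thinning left out 1 pericyte-like, 13 fibroblast-like, 357 endothelial-like, 127 NK-like, 1407 melanoma-like and 172 B-like cells.

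Across the 14 named cell types, genes whose mean log2(CPM + 1) ran most like *Pdgfrb* included *Foxs1* (Pearson r = 0.995) and *Galnt16*, and those most like *Pdgfra* were *Abca8a* (r = 0.994), *Plcxd3* and *Lrrc17*. For *Pdgfd* they were *Zfp697* (r = 0.954), *Gja5*, a gap junction gene of arterial endothelium, and *Ackr1*, a chemokine receptor of venular endothelium. For *Pdgfb* they were *Sh3tc1* (r = 0.904), *Rnf144b* and *Adgrl4*, for *Pdgfa* *Ift43* (r = 0.926), *Nectin2* and *Ube2e2*, and for *Pdgfc* *Nepro* (r = 0.799), *Kazald1* and *Plxdc2*. These are descriptions over 14 points, which share libraries and depth within each library.

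In fibroblast-like cells, primary tumor was set against unchallenged lung, the comparison of tumor-associated fibroblasts with those of a normal organ. *Pdgfra* fell and *Pdgfa* rose in primary tumors, and *Pdgfrb* had higher values there without passing the test. *Pdgfra* was at 1718 CPM [1545 to 1907] in lung replicate 4, 749 CPM [692 to 809] in replicate 5 and 852 CPM [740 to 975] in replicate 6. In primary tumors it was at 169 CPM [141 to 201] in replicate 4, 219 CPM [185 to 258] in replicate 5 and 218 CPM [202 to 235] in replicate 6. Every lung library lay above every primary tumor library. The log2 fold change was -2.35 (SE 0.37, adjusted p = 0.00103, edgeR quasi-likelihood test). *Pdgfa* was at 4.83, 27.0 and 20.3 CPM in lung replicates 4, 5 and 6, from 1, 23 and 5 UMIs. Primary tumor replicates 4, 5 and 6 had 74.6, 53.3 and 109 CPM, again with no overlap, and the log2 fold change was 2.00 (SE 0.43, adjusted p = 0.00643, edgeR). *Pdgfrb* was at 33.8, 115 and 142 CPM in the lung libraries and at 189, 245 and 192 CPM in the primary tumor libraries. These groups did not overlap either, but at a log2 fold change of 1.11 (SE 0.40) the adjusted p was 0.0692 (edgeR). Over all 8344 genes tested in this comparison 22.8% were called, that is, had an adjusted p below 0.05 (894 higher and 1007 lower in primary tumor), so that 2 called of the 3 members tested is to be read against a high background. *Pdgfb*, *Pdgfc* and *Pdgfd* had too few UMIs in these cells to be tested.

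These calls depend on which cells count as fibroblasts. At first the class also held the mesothelial-marker sub-clusters and the sub-clusters led by genes of another cell type, and in that class no member was called: the adjusted p was 0.0549 for *Pdgfra* (log2 fold change -2.28), 0.0567 for *Pdgfa* (1.52) and 0.0681 for *Pdgfrb* (1.64; all edgeR). Over all genes 1335 of 10420 were called in that class. The class was narrowed after these results were known. In lung replicate 6 the narrowed class kept 60 cells and set aside 2051 led by other genes, whose *Pdgfra* was at 252 CPM [236 to 268]. In primary tumor replicate 6 it kept 582 cells and set aside 1456, whose *Pdgfra* was at 31.7 CPM [23.9 to 41.2]. DESeq2 on the wider class called all 3, with adjusted p values of 0.00262, 0.0369 and 0.0208, among 1481 of 10420 genes called. With the mesothelial-marker sub-clusters alone added, edgeR called *Pdgfra* (adjusted p = 0.0128), *Pdgfa* and *Pdgfrb* (adjusted p = 0.032), among 1811 of 9774 genes called. With the other-led sub-clusters alone added it called *Pdgfra* (adjusted p = 0.0462) but not *Pdgfa* (adjusted p = 0.0941), where 1012 of 8867 genes were called. The fold changes kept their directions in all of these classes. A replicate block also brought *Pdgfrb* to an adjusted p of 0.0401 (edgeR), where 1769 of 8344 genes were called. By the library names, the same replicate number stood for different mice in lung and primary tumor, so this block paired no mice.

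**Figure D2:**
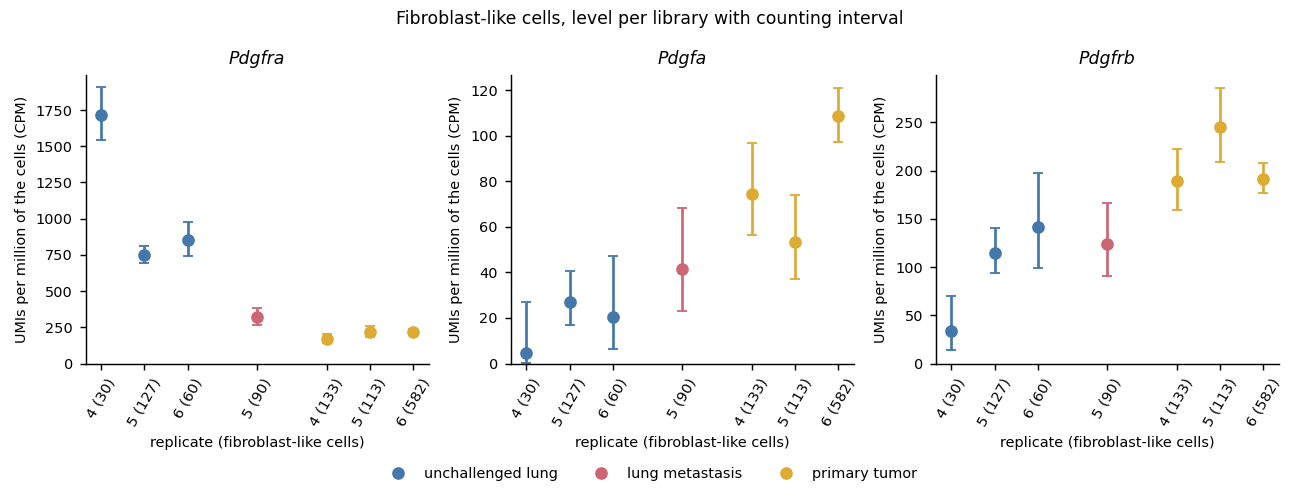
*Pdgfra*, *Pdgfa* and *Pdgfrb* in fibroblast-like cells, in CPM (vertical axis), 1 point per library with its replicate number and cell number on the horizontal axis and bars for the exact 95% Poisson interval. The 3 primary tumor libraries lie below the 3 lung libraries for *Pdgfra* and above them for *Pdgfa* and *Pdgfrb*, and the 1 metastasis library lies at 321, 41.5 and 124 CPM.

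**Figure D3:**
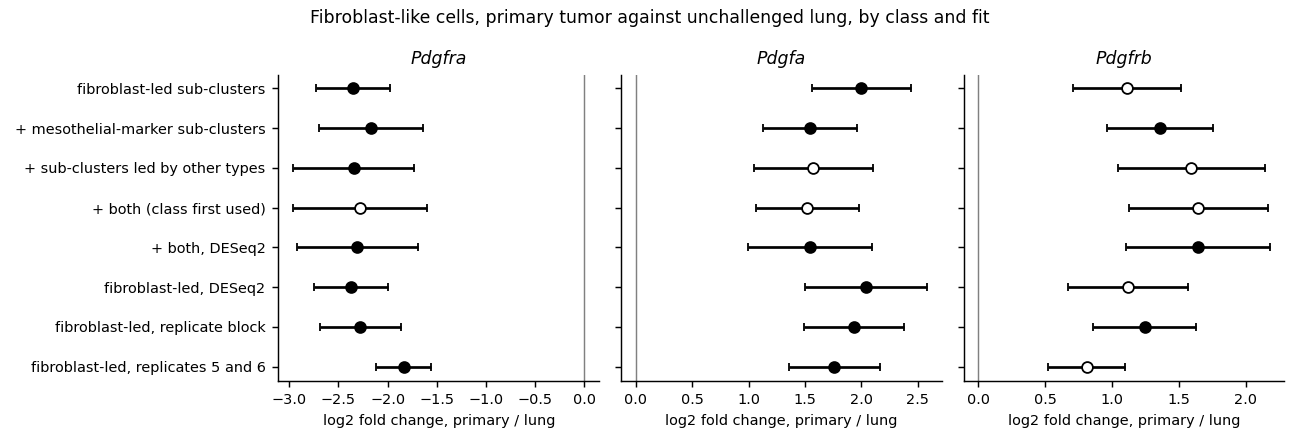
Log2 fold change of primary tumor over unchallenged lung in fibroblast-like cells (horizontal axis, bars 1 SE) for the narrowed class, for wider classes and for other fits; filled points have an adjusted p below 0.05. The point estimates for *Pdgfra* stay negative and those for *Pdgfa* and *Pdgfrb* stay positive, while the call differs between classes.

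Other transcripts moved with these groups. Melanoma markers summed to 3.52 to 9.65 CPM in lung fibroblast-like cells (7 of 10 at 0 in all libraries) and to 746 to 1960 CPM in primary tumor ones, beside 18075 to 28261 CPM in melanoma-like cells, whose own *Pdgfa* was at 57.2 to 99.5 CPM. The pericyte list of 12 summed to 237 to 438 CPM in lung and 183 to 373 CPM in primary tumor fibroblast-like cells, with *Rgs5* and *Higd1b* at 0 in lung, and within it *Notch3*, *Mcam* and *Ndufa4l2* rose while *Kcnj8*, *Abcc9*, *Gucy1a1* and *Gucy1b1* fell. Their part in the results for *Pdgfa* and *Pdgfrb* was not tested. Macrophage markers summed to 1793 to 2534 CPM in lung and 61.7 to 1583 CPM in primary tumor. The mesothelial list of 6 summed to 43.4 to 236.5 CPM in lung and to 1.52 to 7.07 CPM in primary tumor fibroblast-like cells, without overlap. Of this list *Lrrn4*, *Msln*, *Upk3b* and *Wt1* were at 0 in all lung libraries. *Upk1b*, the 1 of them that was tested, fell by 8.01 on the log2 scale (adjusted p = 0.000373, edgeR). It is also among the top genes of the fibroblast-like sub-cluster 9, described below. The part of these markers was not tested either. Organ and tumor cannot be told apart in this comparison.

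The sub-clusters that made up the class were not the same in the 2 tissues. Lung fibroblast-like cells fell into sub-clusters 8 (led by *C7*, *Scara5* and *Vit*, with *Ddx3y* and *Pi16*) and 9 (led by *Slc38a5*, *Nebl* and *Lrat*, with *Col13a1*). The lung libraries were unlike, with sub-cluster 9 at 90%, 24.4% and 43.3% of the cells of replicates 4, 5 and 6, and replicate 4 was also the library with the highest *Pdgfra*. Primary tumor cells fell mostly into sub-clusters 4 (led by *Thbs4*, *Fbn2* and *Tnc*), 7 (led by *Thbs4*, *Spp1* and *Cxcl5*) and 12 (led by *Lrrc15*, *Cthrc1* and *Col5a3*). In replicates 4, 5 and 6 sub-cluster 4 held 60.9%, 43.4% and 61.7% of the cells, sub-cluster 7 held 27.8%, 7.08% and 30.6%, and sub-cluster 12 held 7.52%, 38.9% and 7.22%. *Pdgfra* was highest in sub-cluster 9, with 1901 CPM in lung replicate 4, 1402 CPM in replicate 5 and 1461 CPM in replicate 6. Sub-cluster 8 had 514 and 508 CPM in lung replicates 5 and 6. Both lung sub-clusters thus stood above the tumor sub-clusters, of which sub-cluster 12 had 285 and 366 CPM, sub-cluster 4 had 215 to 229 CPM in 3 libraries and sub-cluster 7 had 75.4 and 97.0 CPM. *Pdgfa* differed among the tumor sub-clusters within the same libraries: in sub-cluster 4 it was at 115 CPM in replicate 5 and 122 CPM in replicate 6, and in sub-cluster 12 at 8.50 and 23.4 CPM, from 2 and 8 UMIs. In sub-cluster 7 it was at 57.3 CPM in replicate 4 and 107 CPM in replicate 6. *Pdgfrb* was at 262, 320 and 219 CPM in sub-cluster 4, above the 22.1 to 112 CPM of sub-cluster 9 in lung. The lung sub-cluster 8, at 140 and 159 CPM, did not lie below the tumor sub-cluster 7, at 139 and 82.1 CPM. It lay within the range of the tumor sub-cluster 12, at 200 and 132 CPM. Pooled over all libraries, sub-clusters 8 and 7 had 144 CPM [123 to 168] and 119 CPM [96.6 to 145], intervals that overlap. *Pdgfc*, pooled in the same way, was highest in sub-cluster 12, at 47.4 CPM [32.0 to 67.7] from 30 UMIs. It was at 1.00 CPM in sub-cluster 4, 13.4 CPM in sub-cluster 7, 6.18 CPM in sub-cluster 8 and 4.01 CPM in sub-cluster 9. Sub-clusters rest on the same cells, so these values carry no test.

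**Figure D4:**
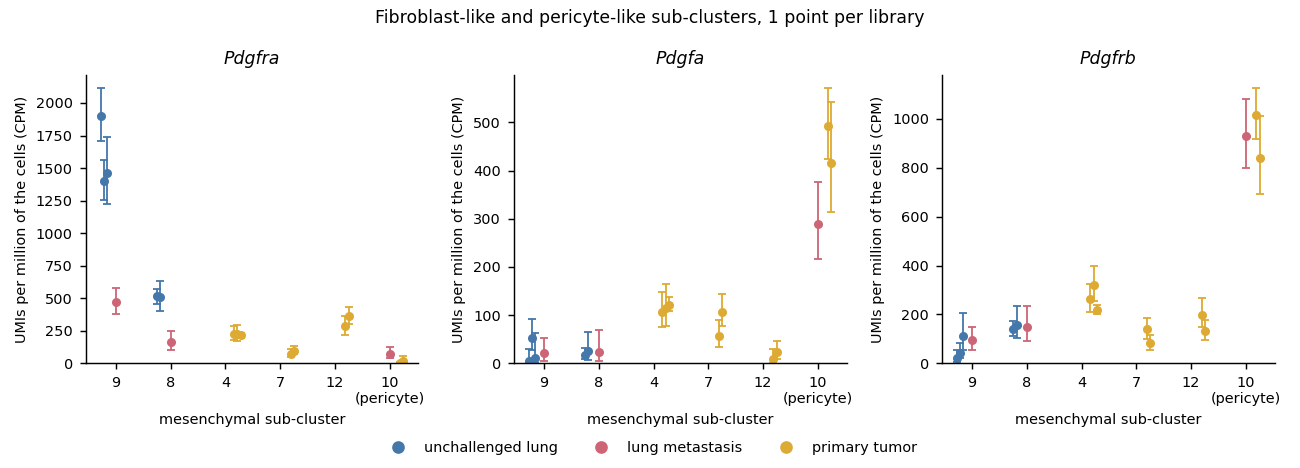
*Pdgfra*, *Pdgfa* and *Pdgfrb* in the fibroblast-like sub-clusters 9, 8, 4, 7 and 12 and the pericyte-like sub-cluster 10, in CPM (vertical axis), 1 point per library with at least 20 cells and bars for the exact 95% Poisson interval, colored by tissue. *Pdgfra* is highest in lung cells of sub-cluster 9, *Pdgfa* and *Pdgfrb* in sub-cluster 10.

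Both receptors were often read in the same fibroblast-like cell. Cells with a UMI of each made up 16.7%, 48% and 41.7% of the lung libraries 4, 5 and 6 and 24.1%, 32.7% and 23% of the primary tumor libraries 4, 5 and 6. If the receptors were read independently, the shares would be 19.3%, 45.7% and 36.8% in lung and 21.8%, 33.1% and 17.9% in primary tumor. Cells with *Pdgfra* but no *Pdgfrb* UMI outnumbered the reverse in each lung library (24 against 1, 56 against 2 and 26 against 1), whereas primary tumor libraries had 38 against 23, 28 against 28 and 126 against 99. Depth differed between these libraries, with median UMIs from 3478 to 7479.

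Fibroblast-like cells of metastases, as the class is drawn here, were few. The class leaves out the mesothelial-marker sub-cluster 6, whose top genes include *Wt1*, *Lgals7* and *Calca*, genes the study counts with metastasis fibroblasts, and with it they would not be few. Without it only metastasis TME replicate 5 reached 20 (90 cells), so the comparisons of metastasis with primary tumor and with lung have no test. Its *Pdgfra* was at 321 CPM [265 to 385], its *Pdgfa* at 41.5 CPM [23.2 to 68.4] and its *Pdgfrb* at 124 CPM [90.7 to 166]. For *Pdgfra* and *Pdgfa* it lay between the lung and the primary tumor libraries. Of its cells 70% were in sub-cluster 9 and 22.2% in sub-cluster 8, the sub-clusters that also held the lung cells. Within sub-cluster 9 its *Pdgfra* was at 473 CPM beside 1402 to 1901 CPM in lung, and within sub-cluster 8 at 165 CPM beside 508 and 514 CPM. Melanoma markers summed to 3994 CPM in these cells, more than in any lung or primary tumor fibroblast-like library, and their part was not tested. With the mesothelial-marker cells added, which brought metastasis replicate 6 to 20 cells as well, *Pdgfra* had a log2 fold change of 1.82 over primary tumor (SE 0.56, adjusted p = 0.0877) and *Pdgfa* of -1.55 (SE 0.47, adjusted p = 0.0823), neither of which passed in edgeR. Against lung the values of *Pdgfra* and *Pdgfa* were -0.35 (SE 0.57) and -0.01 (SE 0.50). Of 9774 genes tested, 554 were called against primary tumor and 673 against lung.

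Mesothelial-marker cells themselves were uneven. *Pdgfra* was at 305 CPM [273 to 340] in 211 cells of metastasis TME replicate 5 and at 1278 CPM [1128 to 1442] in 31 cells of replicate 6, and it was not read in the 53 cells of unchallenged lung replicate 6, which allows up to 28.5 CPM (3 UMIs). These libraries held different sub-clusters: 47 of the 53 lung cells were in sub-cluster 13, led by *Upk3b*, *Gpm6a* and *Msln* with *F13a1*, *Ear2* and *Chil3* among its top genes and a median of 1251 UMIs per cell, whereas nearly all metastasis cells were in sub-cluster 6, led by *Cxcl13* and *Upk3b*. Sub-cluster and tissue cannot be told apart here. *Pdgfrb* was at 133 and 117 CPM in the metastasis libraries and not read in the lung library.

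Pericyte-like cells were compared between metastasis and primary tumor by value only, since 1 metastasis and 2 primary tumor libraries had 20 cells. *Pdgfrb* in the metastasis library lay between the primary tumor libraries. *Pdgfa* was at 289 CPM [217 to 377] in metastasis TME replicate 5 and at 493 CPM [424 to 571] and 417 CPM [314 to 542] in primary tumor TME replicates 4 and 6. *Pdgfra* was at 74.8 CPM [40.9 to 126] in the metastasis library, from 14 UMIs in 34 cells, and at 0 and 15.1 CPM in the primary tumor libraries. Melanoma markers summed to 2731 CPM in the metastasis and to 184 and 1242 CPM in the primary tumor pericyte-like cells. Unchallenged lung had under 20 pericyte-like cells in each library, so no normal pericyte level is given.

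In endothelial-like cells all 3 tissues could be compared, with 4 TME or lung libraries each. No member passed the test in any of these comparisons. Metastasis and primary tumor were each set against the same lung libraries, so these comparisons share their controls. *Pdgfb* was at 252, 164, 320 and 311 CPM in lung replicates 1, 4, 5 and 6. Metastasis replicates 1-3, 4, 5 and 6 had 401, 210, 201 and 165 CPM, and primary tumor replicates 1-3, 4, 5 and 6 had 216, 151, 173 and 193 CPM. The groups overlapped, and the log2 fold changes were -0.09 (SE 0.27) for metastasis over lung, -0.41 (SE 0.27) for primary tumor over lung and 0.32 (SE 0.28) for metastasis over primary tumor.

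*Pdgfd* was at 51.9, 40.8, 45.5 and 38.0 CPM in lung replicates 1, 4, 5 and 6, from 155, 284, 270 and 46 UMIs. Metastasis replicates 1-3, 4, 5 and 6 had 5.27, 25.9, 20.4 and 24.4 CPM, the first from 1 UMI, and primary tumor replicates 1-3, 4, 5 and 6 had 7.99, 24.2, 27.0 and 36.4 CPM. Every lung library lay above every tumor library. The log2 fold change was -0.99 for metastasis over lung (SE 0.31, unadjusted p = 0.00642, adjusted p = 0.107, edgeR), where 3.22% of the 9722 genes tested were called, and -0.63 for primary tumor over lung (SE 0.30, adjusted p = 0.143, edgeR), where 27.8% were called. Between metastasis and primary tumor, where 11.7% were called, it was -0.37 (SE 0.34). By the library names used, replicates 5 and 6 of these tissues came from the same mice, and the pools 1-3 shared 2 mice, but names that repeat the cells of replicates 5 and 6 carry other mouse numbers. *Pdgfa* had a log2 fold change of 0.75 for primary tumor over lung (SE 0.37, adjusted p = 0.146, edgeR). In replicates 5 and 6 alone, which carry the same run number in the library names, it was 1.43 with an adjusted p of 0.00405 (edgeR). In that fit 3055 of 10594 genes were called. Primary tumor endothelium of replicates 5 and 6 was all of cluster 13, described below. Within cluster 13, over all replicates, the estimate for *Pdgfa* had the other sign.

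The 3 endothelial clusters differed in these ligands, as a description without a test. Cluster 17, led by *Cyp1a1*, *Fibin*, *Car4* and *Ednrb*, of which *Car4* and *Ednrb* are known from lung capillary cells, had the most *Pdgfb*, at 306 to 506 CPM in the 4 lung libraries, and the most *Pdgfd*, at 59.9 to 95.2 CPM. Cluster 6, led by *Npr3*, *Cyp1a1* and *Sema3g*, had 144 to 296 CPM of *Pdgfb* and 30.0 to 41.8 CPM of *Pdgfd* in lung. Cluster 13, led by *Igfbp3*, *Tmem252* and *Slc6a2*, had 74.5 to 178 CPM of *Pdgfb* and 9.72 to 25.3 CPM of *Pdgfd* in lung. In every lung library both ligands were highest in cluster 17 and lowest in cluster 13. Primary tumor endothelium was 82.4% to 100% cluster 13, metastasis endothelium 9.47% to 45.7% and lung endothelium 7.05% to 27.4%.

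Within cluster 13 the estimated differences between primary tumor and lung had the other sign for *Pdgfb* and *Pdgfd*, and neither passed the test. *Pdgfb* was at 198, 151, 173 and 193 CPM in primary tumor replicates 1-3, 4, 5 and 6 beside 77.8, 74.5, 129 and 178 CPM in lung replicates 1, 4, 5 and 6, a log2 fold change of 0.68 (SE 0.30, adjusted p = 0.122, edgeR) where the whole class had -0.41. *Pdgfd* there had 0.39 (SE 0.36, adjusted p = 0.487, edgeR) where the whole class had -0.63. For metastasis over lung in cluster 13 *Pdgfb* had 0.44, where the whole class had -0.09, and *Pdgfd* had -0.26, the sign of the whole class. Within cluster 6, which held 38.4% to 82.1% of lung and 37.9% to 81.1% of metastasis TME endothelium, *Pdgfd* was at 7.32, 18.2, 10.2 and 21.9 CPM in metastasis replicates 1-3, 4, 5 and 6 and at 30.0 to 41.8 CPM in lung, without overlap. All UMIs of these metastasis cells came to 136698, 494191, 787734 and 273881, so each of the 4 metastasis values rests on few *Pdgfd* UMIs. The log2 fold change of *Pdgfd* in cluster 6 was -1.14 (SE 0.32, unadjusted p = 0.00358, adjusted p = 0.229, edgeR). These splits by cluster were chosen after the values of the whole class had been seen. At resolution 1.0 an endothelial cluster led by *Igfbp3* and *Tmem252* held 536 primary tumor TME, 631 metastasis TME and 21 lung cells. Another, led by *Slc6a2* and *Cytl1*, held 3, 130 and 737. All are top genes of cluster 13, so its values need not compare the same kind of cell between tissues. Clusters led by *Npr3* and by *Glp1r*, top genes of cluster 6, held 1916 and 956 lung and 116 and 500 metastasis TME cells. Melanoma markers summed to 1.87 to 6.61 CPM in lung, 461 to 7618 CPM in metastasis and 237 to 1717 CPM in primary tumor endothelium, and pericyte markers to 230 to 277, 172 to 364 and 362 to 569 CPM; their part was not tested. *Pdgfrb* in endothelial-like cells reached 7.05 CPM at most, beside 841 to 1016 CPM in pericyte-like cells.

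**Figure D5:**
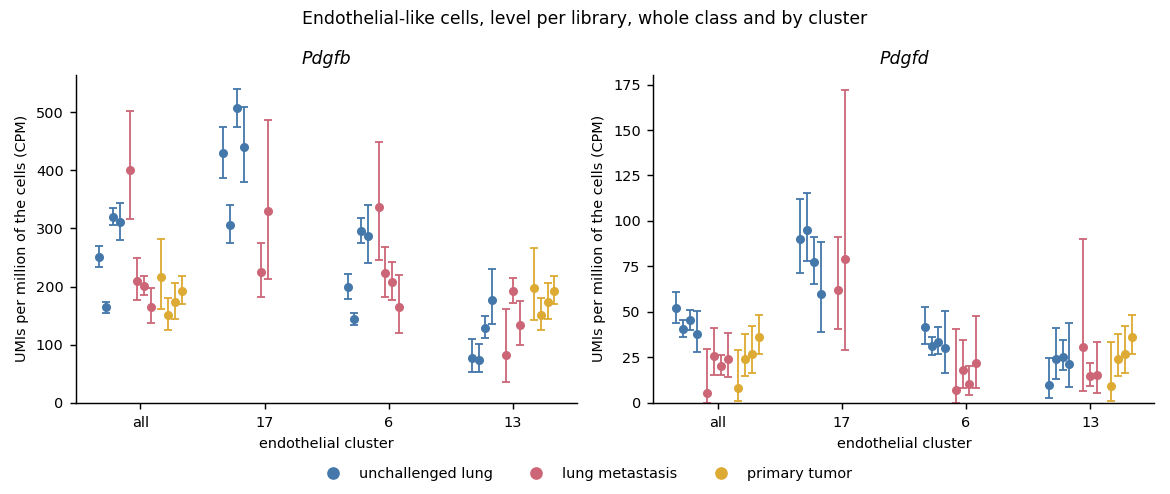
*Pdgfb* and *Pdgfd* in endothelial-like cells, whole class and clusters 17, 6 and 13, in CPM (vertical axis), 1 point per TME or lung library with at least 20 cells and bars for the exact 95% Poisson interval. Both ligands are highest in cluster 17 of lung, and all 4 primary tumor libraries have points in cluster 13 only.

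In melanoma-like cells *Pdgfa* was the member that was read in numbers. In the MM libraries it was at 65.8 CPM [52.9 to 80.8] and 57.2 CPM [55.3 to 59.1] in metastasis replicates 4 and 5 and at 98.4 CPM [95.8 to 101] and 99.5 CPM [95.9 to 103] in primary tumor replicates 4 and 5. Both metastasis libraries lay below both primary tumor libraries. Over the 5 libraries with melanoma-like cells, melanoma markers summed to 22386 to 28261 CPM in metastasis and 18075 to 19552 CPM in primary tumor, and macrophage markers to 794 to 1154 and 680 to 713 CPM, neither with overlap, and their part was not tested. The log2 fold change was -0.71 (SE 0.35, unadjusted p = 0.0568, adjusted p = 0.999, edgeR), in a comparison of 2 against 2 libraries where 1 of 14270 genes was called (0.00701%). By the names, both replicates 5 came from 1 mouse, while the replicates 4 came from different mice. With the replicate number as a block 128 genes were called, and *Pdgfa* was at -0.71 (SE 0.32, adjusted p = 0.671, edgeR). Melanoma-like cells within metastasis TME replicate 5 had 80.5 CPM. *Pdgfd* was at 1.56 to 3.65 CPM in the 5 libraries with melanoma-like cells, and *Pdgfb*, *Pdgfc*, *Pdgfra* and *Pdgfrb* were at or below 1.46 CPM in each of them.

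Among the 37 genes listed as partners of the pathway, primary tumor fibroblast-like cells had 8 higher and 4 lower than lung of 33 tested, a share to be read against the 22.8% called over all genes. Of the ligand processing genes, *Plau*, the urokinase plasminogen activator that can release PDGF-D, rose by a log2 fold change of 2.71 (SE 0.51, adjusted p = 0.003, edgeR). Of the coreceptors, the integrin gene *Itgb3* rose by 3.10 and *Itgav* by 1.45, while the neuropilins *Nrp2* and *Nrp1* had log2 fold changes of -2.21 and -1.15. In signal transduction *Plcg1* and *Rasa1* rose by 1.68 and 1.66, and the phosphoinositide 3-kinase genes *Pik3r1* and *Pik3ca* had -1.61 and -0.83. Of the inhibitors, *Spry2* rose by 1.57 and the phosphatase gene *Ptpn2* by 1.04. The median log2 fold change was 0.53 over the tested ligand processing genes, 0.75 over the coreceptors, 0.24 over the signal transduction genes and 0.68 over the inhibitors, beside 0.04 over all genes.

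In endothelial-like cells the same list had 12 higher and 6 lower in primary tumor than in lung of 35 tested (27.8% of all genes called), 2 higher and 0 lower in metastasis than in lung (3.22% of all genes called) and 2 higher and 5 lower in metastasis than in primary tumor (11.7% of all genes called). *Sparc*, a matricellular protein that binds PDGF-B, had log2 fold changes of 4.24 in primary tumor (SE 0.60, adjusted p = 0.00012) and 2.77 in metastasis (SE 0.56, adjusted p = 0.0128) over lung, and *Itgb3* of 3.42 and 2.85 (edgeR). Markers of other cell types moved in the same comparison of primary tumor with lung. Of the 12 fibroblast markers 7 were tested and 5 rose, among them *Col1a1* by 6.75, *Col3a1* by 5.87, *Dcn* by 4.75 and *Col1a2* by 4.57. The whole fibroblast list summed to 63.8 to 626 CPM in lung, 61.4 to 1086 CPM in metastasis and 755 to 2546 CPM in primary tumor endothelium. Of the macrophage markers 4 of 10 tested rose, *C1qa*, *C1qb* and *C1qc* by 4.19 to 4.29 and *Apoe* by 2.09, and *Chil3* fell by 6.43, while the list summed to 171 to 1090 CPM in lung and 158 to 1566 CPM in primary tumor. Of the pericyte markers 3 of 6 tested rose (*Abcc9* by 6.45, *Kcnj8* by 5.49 and *Ndufa4l2* by 4.46), and of the smooth muscle markers 2 of 4 tested (*Tagln* by 4.01 and *Acta2* by 3.37). Of the 10 melanoma markers 8 were tested, and all 8 rose over lung both in primary tumor (median log2 fold change 6.89) and in metastasis (8.81). The AT-2 list of 6 summed to 19.1 to 647.6 CPM in lung and to 0 to 1.52 CPM in primary tumor endothelium, with 5 of the 6 at 0 there. *Sparc* itself was at 3553 ± 1198 CPM (n = 7) in fibroblast-like and 8306 ± 2600 CPM (n = 3) in pericyte-like and 2106 ± 400 CPM (n = 5) in melanoma-like cells, beside 2185 ± 2223 CPM (n = 13) in endothelial-like cells. The part of these cells in the endothelial values was not tested.

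*Nrp2* rose by 3.25 and *Nrp1* had -1.77 in primary tumor over lung, the neuropilins thus differing in direction. The inhibitor genes *Socs3*, *Spry1*, *Spry4* and *Ptpn1* rose in primary tumor, by 1.70, 1.32, 1.40 and 0.68, and 0 of the 9 inhibitors fell. In melanoma-like cells 0 of 33 tested partners were called between metastasis and primary tumor, as edgeR called 1 gene in all, with 444 at an unadjusted p under 0.05 and 25 called by DESeq2.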

How the data were processed

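The authors had aligned 10x Genomics 3' v3.1 libraries to GRCm38 with Cell Ranger 6.1.1 and filtered cells in Seurat 3.2.2, per the submitters' processing notes and the study's methods. They deposited raw UMI counts per gene and cell and a table that names the library of each cell. Their normalized values were not used. Library names that repeated the cells of another were counted once, and 1 lung name was matched to its sample as the one left over in its group. The names of metastasis MM replicate 5 and of primary tumor MM replicates 4 and 5 carried other replicate numbers. They were matched by the mouse number in the name. Cells were clustered in Seurat 5.3.0 (2000 variable genes without the members, 17 components, resolution 0.5; 12 components for mesenchymal cells), and clusters of at least 100 cells were named from marker lists. The mesenchymal sub-clusters were named from these lists without that minimum, the smallest being the mesothelial-marker sub-cluster 13 of 49 cells. No doublet caller was run. The naming rule was widened to whole marker lists after clusters at resolution 1.0 had left tumor endothelium unnamed. Members and lists were chosen with earlier results of these data known. UMIs were summed per library and cell type (at least 20 cells) and tested with edgeR 4.0.16 (quasi-likelihood test, filterByExpr, TMM, Benjamini-Hochberg over all genes, threshold 0.05). The edgeR fits were also run on simulated counts with known changes, whose dispersions came from these data. The outcome of that simulation is not given here. DESeq2 1.42.0 was an alternative. Fold changes are on the log2 scale with SE from the F statistic. P-values measure the spread between libraries. By the library names, replicates 5 and 6 of metastasis and primary tumor (and the MM libraries 5) came from the same mice, the pools 1-3 shared 2 mice, and TME and MM libraries 4 of a tissue came from 1 mouse. Replicates 4 of metastasis and primary tumor came from different mice, and the lungs from other mice. The names that repeated the cells of TME replicates 5 and 6 carry other mouse numbers, and 1 of them is an MM name, so these identities rest on the names kept. The fits had no block by design, and the replicate block was an alternative. Named genes were the 6 members, partners that were called or led their role, and the 3 genes of most like pattern per member, of which 1 is not reported here.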

Additional observations from a re-analysis of the deposited data

Results flagged for a closer look

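Among 50 groups of 4 or more libraries tested, 13 held a library far from the others. The rule flags about 1 in 20 by chance for normally spread values, a rate that does not hold for counts this low. Where all other libraries were at 0, the flag was fixed whatever the count. The 13 are therefore not set against a chance rate, and most of them rest on a few UMIs. *Pdgfa* in macrophage-like cells was at 27.6 CPM in unchallenged lung replicate 4 (20 UMIs) beside 7.47 to 10.1 CPM in the other lung libraries. In B-like cells of unchallenged lung replicate 6, *Pdgfra* was at 11.7 CPM (25 UMIs) beside 0 to 0.521 CPM and *Pdgfc* at 7.47 CPM (16 UMIs) beside 0 to 1.04 CPM; monocyte-like cells of that library had *Pdgfc* at 1.31 CPM (9 UMIs) beside 0 to 0.105 CPM. This was the unchallenged lung library with the most cells and the lowest median UMIs per cell. In endothelial-like cells *Pdgfc* was at 5.27 CPM in metastasis TME replicate 1-3 (1 UMI) and at 0.673 CPM in unchallenged lung replicate 5 (4 UMIs). *Pdgfd* was at 9.24 CPM in B-like (2 UMIs) and 1.47 CPM in neutrophil-like cells (4 UMIs) of unchallenged lung replicate 5, at 7.63 CPM in macrophage-like cells of metastasis TME replicate 6 (4 UMIs), and at 0 CPM in monocyte-like cells of unchallenged lung replicate 1 beside 0.438 to 0.524 CPM. *Pdgfra* was at 12.8 CPM in macrophage-like cells of metastasis TME replicate 4 (2 UMIs). *Pdgfrb* was at 0.489 CPM in macrophage-like cells of metastasis TME replicate 1-3 (1 UMI) and 0.735 CPM in neutrophil-like cells of unchallenged lung replicate 5 (2 UMIs).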

How the results depend on the processing

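In fibroblast-like cells of primary tumor against lung, *Pdgfra* stayed called with DESeq2, no filter, the replicate block, libraries of at least 10 cells, clusters at resolution 1.0, replicates 5 and 6 alone and with each library left out (log2 fold change -2.54 to -1.96), as did *Pdgfa* (1.69 to 2.71). Genes called went from 1901 to 3045 with no filter on low counts, which also moved the median over all genes to 0.30 and brought *Pdgfrb* past the threshold (adjusted p = 0.00285), to 1012 with the other-led sub-clusters, and to 1274 to 2199 with 1 library left out. *Pdgfd*, not tested there, was called in replicates 5 and 6 alone (log2 fold change -1.67, adjusted p = 0.0175, edgeR) and without lung replicate 4 (-1.62, adjusted p = 0.0244, edgeR). In these fits 2507 of 8848 and 2199 of 9113 genes were called. The lung side of both rested on 27 and 4 *Pdgfd* UMIs in replicates 5 and 6. With the mesothelial-marker cells added, small values of metastasis against primary tumor or lung turned in the class first used: *Pdgfc* 0.01 and, in DESeq2, 0.16, and *Pdgfa* 0.00 in DESeq2.

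In endothelium, cluster 13 alone gave 298 genes called for metastasis against primary tumor, 720 for metastasis against lung and 1780 for primary tumor against lung, and cluster 6 alone 31 for metastasis against lung. In cluster 13 *Pdgfa* turned in all 3 comparisons (0.04, -0.08 and -0.12 in that order), *Pdgfb* in all 3 (-0.24, 0.44 and 0.68) and *Pdgfd* in the last (0.39). In cluster 6 *Pdgfa* was at -0.53 and *Pdgfb* at 0.06 for metastasis against lung. Metastasis against lung gave 499 genes called in DESeq2, 702 with no filter, 2265 in replicates 5 and 6 alone and 111 to 799 with 1 library left out, with *Pdgfb* from -0.37 to 0.05. Counts were 111 without metastasis replicate 5, 202 without metastasis replicate 6, 165 without lung replicate 5, 199 without lung replicate 1 and 799 without metastasis replicate 4. Metastasis against primary tumor gave 736 to 1519 with 1 library left out, with 736 without primary tumor replicate 6 and 748 without primary tumor replicate 4.

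For melanoma-like cells the 1 gene called became 25 in DESeq2, 74 with no filter, 128 with the replicate block, 0 with the *Cspg4* *Bche* cells, and 12 to 33 with 1 library left out, where the lone library is assumed to vary like the other group; *Pdgfc* turned (-5.98 to 1.14 with 1 library left out, 0.54 with those cells), as did *Pdgfd* (-0.45 to 0.84, -0.19 with those cells). The cause of these changes was not tested. Deviations of same-numbered libraries correlated at 0.0077 to 0.104 in fibroblast-like cells (lung with primary tumor, different mice). Between metastasis and primary tumor endothelium they correlated at 0.165 for each of replicates 5 and 6 (same mice), 0.143 for 1-3 (2 mice shared) and 0.0161 for 4 (different mice), beside -0.212 to 0.125 for pairs with different numbers, and lung with metastasis pairs with different numbers reached 0.272. In melanoma-like cells, with 2 libraries in each group, both same-numbered pairs have 0.418 and the others -0.418 by construction, so the value tells nothing of either pair. With the replicate block 1117 genes were called between metastasis and primary tumor endothelium, beside 1138 without it, and the block changed no call of a member beyond that given for *Pdgfrb*.

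No test could be made for pericyte-like cells or, in the narrowed class, metastasis fibroblast-like cells, and replicates 5 and 6 alone could not be fitted for melanoma-like cells. Of 204 levels recomputed by pooling or at resolution 1.0, 12 moved by more than the SD between libraries. Of 204 shares of cells with a UMI, 84 moved by more than that SD, 66 of them without thinning and 18 at 500 UMIs.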
